A study of Mus musculus with 16 samples.

Results

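The genes described here are 37 chaperones and stress response genes, taken by gene symbol from the 20200 genes of the count table. They were measured by bulk RNA-seq in myeloid cells sorted from the tissue between tendon graft and bone after reconstruction of the anterior cruciate ligament (ACLR) in mice. The list was divided by role into 12 cytosolic heat shock genes, 3 mitochondrial chaperone genes, 14 endoplasmic reticulum (ER) folding genes, 3 genes of ER-associated degradation, and 5 transcription factors and targets of the ATF4 branch. The last 3 groups hold the 22 ER stress genes. All mice were male wild-type C57BL/6 adults (C57BL/6J in the study's methods), all had surgery, and no unoperated group was analysed here. The 4 populations were CD9+ macrophages and CX3CR1+ macrophages, both F4/80+ and Ly6G-, the remaining F4/80- Ly6G- myeloid cells (F4/80- cells below) and Ly6G+ neutrophils, all gated as live, lineage-negative, CD45+ and CD11b+. Each was sorted 1 and 14 days after surgery, which gave 8 groups of 2 libraries. Every library pooled cells from several mice, so the spread between 2 libraries is a spread between pools, and the p-values below measure no more than that. By the study's mouse numbers, different populations must share mice. The main tests took no account of this. F4/80+ cells positive for both CD9 and CX3CR1 fell into the CD9+ sort. Tissue was digested with enzymes before sorting.

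Chaperones bind unfolded proteins and help them fold. In the cytosol, heat shock factor 1 raises the Hsp70 and Hsp90 machinery when damaged proteins accumulate. In the ER, the Hsp70 protein BiP, encoded by Hspa5, works with the Hsp90 homolog encoded by Hsp90b1, with lectin chaperones and with protein disulfide isomerases. Unfolded protein in the ER activates membrane sensors, and these act through the transcription factors XBP1, ATF6 and ATF4 to raise chaperones, degradation factors and, in prolonged stress, Ddit3 (CHOP) and Trib3. Cells that secrete much protein, and myeloid cells in inflamed tissue, are known to use this response.

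ATF6 and XBP1 are known to act through the ER stress response element, which was searched as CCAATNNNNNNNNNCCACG on both strands in the 250 bases before the start of each gene, in RefSeq promoters of GRCm38.p6. A promoter sequence was at hand for 30 of the 37 genes. The element was found in 7 of 12 searched ER folding promoters (Hspa5, Hsp90b1, Dnajc3, Calr, Canx, Pdia6 and Creld2), in 0 of 18 promoters of the other roles, and in 35 of 27025 promoters in all (0.13%). The sequences are shown for genes that carry the time course below, 5′ to 3′ on the strand of the gene, with the fixed letters of the element in capitals. The motif of Hspa5 lies from -65 to -47 relative to the start, that of Pdia6 from -98 to -80, and that of Creld2 reads in the opposite orientation. Hsp90b1 has a match in each orientation, from -212 to -194 and, reversed, from -107 to -89, and the reversed one is shown.
Hspa5, chr2:34772020-34772049, plus strand: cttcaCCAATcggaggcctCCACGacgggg
Pdia6, chr12:17266486-17266515, plus strand: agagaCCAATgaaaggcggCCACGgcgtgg
Hsp90b1, chr10:86705527-86705556, minus strand: gagtgCGTGGtgaggcacgATTGGtgagtt
Creld2, chr15:88819480-88819578, plus strand: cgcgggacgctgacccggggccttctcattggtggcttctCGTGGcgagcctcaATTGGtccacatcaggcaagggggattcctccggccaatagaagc
A heat shock element of 3 inverted repeats (GAANNTTCNNGAA or TTCNNGAANNTTC, which overlap in this promoter) was found only in the promoter that Hspd1 and Hspe1 share in opposite directions, among the members searched, against 139 of 27025 promoters (0.514%). The promoter is shown once, on the strand of Hspe1, with the repeats of 1 match in capitals.
Hspe1, chr1:55088051-55088080, plus strand: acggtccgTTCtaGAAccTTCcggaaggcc
An amino acid response element (TGATGNAA) was present in the promoters of Herpud1 and Chac1, and in 1056 of 27025 promoters (3.91%). A match describes letters only. Of the 12 cytosolic heat shock genes 8 had a promoter to search, and 0 of these matched the heat shock element. The exact pattern over 250 bases can miss looser or more distant elements, so a missing match does not show that a gene lacks one.

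Library totals lay between 10587857 and 19814119 counts on day 1 and between 9233952 and 12721779 counts on day 14. Levels are given as CPM, counts scaled to the same total in each library after edgeR's TMM factors. The pair of CD9+ day 1 libraries stood apart, with a Pearson correlation of log2 CPM of 0.935 against 0.976 to 0.988 in the other 7 pairs. Results that changed without 1 of them are given with that value or named. Markers of other cells were present in some sorts. The summed level of 10 neutrophil markers was 53812 to 116056 CPM in neutrophils, 33104 to 43516 CPM in F4/80- cells, 5694 to 20524 CPM in CD9+ macrophages and 506 to 1102 CPM in CX3CR1+ macrophages, and none of the 10 was at 0 in any group. The sum does not show how the markers differed. On day 1 Camp, Ltf and Ngp overlapped between F4/80- cells and neutrophils, and the other markers were lower in F4/80- cells. Ly6g had 9.66 and 6.97 CPM there against 125 and 81.7 CPM in neutrophils, and Csf3r 213 and 214 CPM against 3636 and 3807 CPM. The labels give no date of sorting or sequencing, so the day after surgery and the day of processing cannot be told apart. In bulk RNA, fewer cells of a type and less RNA per cell cannot be told apart either.

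The main pattern was a lower level of ER folding chaperones on day 14 than on day 1 in all 4 populations, deepest in neutrophils. A gene was called when its adjusted p in edgeR's quasi-likelihood test was under 0.05 and its log2 fold change was 1 or more in size. The summed level of the 14 ER folding genes was 4980 and 6235 CPM at its lowest and highest in CD9+ macrophages on day 1 and 3422 and 3654 CPM on day 14. In CX3CR1+ macrophages the sum went from 5026 to 5112 CPM on day 1 to 2650 to 2955 CPM on day 14, and in F4/80- cells from 5268 to 5297 CPM to 2907 to 3264 CPM. Neutrophils started at 4535 to 5110 CPM, a range that overlapped those of both macrophage populations, and reached 1485 to 1559 CPM. The days did not overlap in any population.

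**Figure D1:**
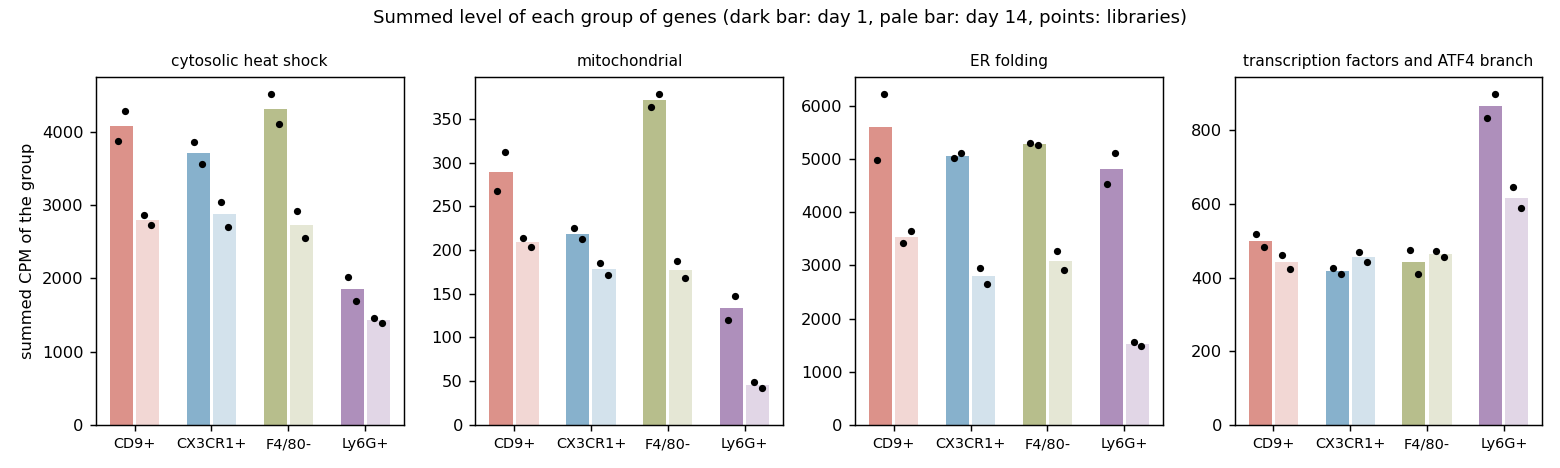
Summed CPM of the genes of 4 role groups (y axes, linear and starting at 0) in each population on day 1 and day 14, with bars for the mean of 2 libraries and points for the libraries. The ER folding sum was lower on day 14 in all 4 populations, and lowest in day 14 neutrophils at 1485 to 1559 CPM.

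Of the 36 members that passed the filter on low levels, 5 were called lower on day 14 in CD9+ macrophages (13.9%, where 3.48% of all genes tested were called lower and 8.23% in either direction). In CX3CR1+ macrophages 5 were called lower (13.9%, against 3.47% lower and 5.86% in either direction), in F4/80- cells 9 (25%, against 2.24% lower and 3.25% in either direction), and in neutrophils 17 (47.2%, against 10.9% lower and 14.1% in either direction). Leaving out 1 library moved the count in CD9+ macrophages to 2 without the second day 1 pool and to 8 without the first, that in CX3CR1+ macrophages to 8 without the first day 14 pool, and that in F4/80- cells to 4 without the second day 14 pool. No member was called higher on day 14 in any population with edgeR, DESeq2 or limma-voom, where edgeR called 4.75%, 2.39%, 1.01% and 3.15% of all genes higher in that order of populations. Without the fold threshold, 17, 12, 19 and 22 of the 36 members passed, against 17.7%, 12.6%, 6.1% and 27.7% of all genes. Of each of the first 2 counts, 1 was higher on day 14 (Dnajb4 in CD9+ and Ddit3 in CX3CR1+ macrophages). At an unadjusted p under 0.05, 3 members were higher in CD9+ macrophages, 2 in CX3CR1+ macrophages, 2 in F4/80- cells and 0 in neutrophils. The median log2 fold change of the 14 ER folding genes was -0.72 in CD9+ macrophages, -0.93 in CX3CR1+ macrophages, -0.89 in F4/80- cells and -1.83 in neutrophils, while that of all genes tested was 0.00, 0.03, -0.02 and -0.02. By sign, 13 of the 14 were lower on day 14 in all 4 populations, the exception being Dnajb9, and 12 when libraries were scaled by their totals, where Dnajc3 dropped out.

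**Figure D2:**
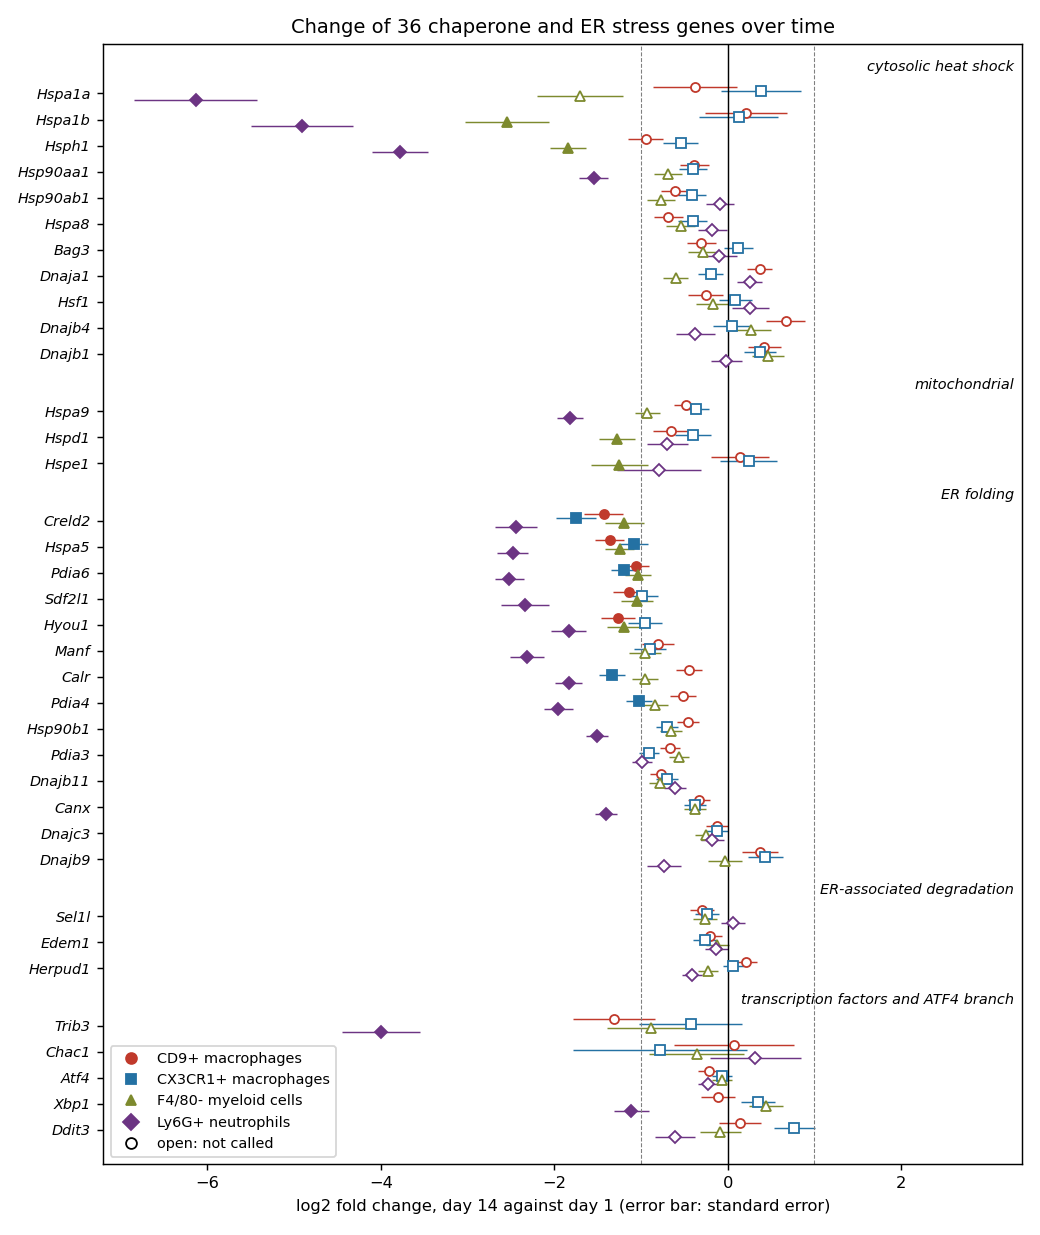
Log2 fold change of day 14 against day 1 (x axis) for the 36 members tested (y axis, by role) in the 4 populations, with horizontal bars for the standard error of the fit over 16 libraries and filled points for called genes. With TMM scaling the ER folding genes lie left of 0 in all 4 populations except Dnajb9, and Hspa1a reaches -6.13 in neutrophils.

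Hspa5, which encodes the main ER Hsp70 and a repressor of the ER sensors, was among 3 genes called in all 4 populations, with Pdia6 and Creld2. Its libraries read 818 and 1214 CPM on day 1 and 378 and 414 CPM on day 14 in CD9+ macrophages, and 749 and 795 CPM against 372 and 355 CPM in CX3CR1+ macrophages. F4/80- cells held 886 and 868 CPM on day 1 and 395 and 346 CPM on day 14. Neutrophils held 1414 and 1757 CPM on day 1, the highest Hspa5 levels of the 16 libraries, and 284 CPM in both day 14 libraries, the lowest. Day 1 lay above day 14 without overlap in each population. The log2 fold changes were -1.36 ± 0.17 (SE, n = 2 against 2), -1.09 ± 0.17, -1.24 ± 0.17 and -2.48 ± 0.17 in that order of populations. Adjusted p (Benjamini-Hochberg, edgeR's quasi-likelihood test) was 8.8e-05, 0.00053, 0.00041 and 9.2e-08.

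Pdia6, a protein disulfide isomerase that rearranges disulfide bonds in the ER, had 244 and 309 CPM on day 1 in CD9+ macrophages and 128 and 137 CPM on day 14. Its neutrophil libraries fell from 167 and 193 CPM to 30.7 and 32.2 CPM, the largest decrease of an ER folding gene in these 4 comparisons (5.72-fold, log2 fold change -2.52 ± 0.16). Creld2, a secretory factor induced by ER stress, went from 38.5 and 32.9 CPM to 11.3 and 9.93 CPM in CX3CR1+ macrophages (-1.75 ± 0.23) and from 42.7 and 68.2 CPM to 8.55 and 11.7 CPM in neutrophils (-2.44 ± 0.24). Both genes thus had non-overlapping days in each population. In CD9+ macrophages their log2 fold changes were -1.06 ± 0.15 and -1.43 ± 0.23, and in F4/80- cells -1.04 ± 0.15 and -1.19 ± 0.22. The call of Pdia6 in CD9+ macrophages was lost without the second day 1 library, where its log2 fold change was -0.87, without the first day 14 library (-0.99) and with scaling by library totals (-0.85).

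Hyou1, a large ER Hsp70 that acts as nucleotide exchange factor for BiP, and Sdf2l1, a partner of ER DnaJ proteins, were called in 3 populations each. In CD9+ macrophages Hyou1 went from 199 and 350 CPM to 117 and 112 CPM (-1.27 ± 0.20), with the day 1 libraries wide apart, and without the second of them the log2 fold change was -0.80 and not called. In neutrophils it went from 219 and 263 CPM to 72.0 and 63.4 CPM (-1.83 ± 0.20). Sdf2l1 differed from the other ER genes in level, since neutrophils held only 6.37 and 7.81 CPM on day 1 and 1.69 and 1.13 CPM on day 14, whereas the other populations held 47.6 to 63.2 CPM on day 1 and 22.4 to 27.9 CPM on day 14. Its CD9+ change of -1.14 ± 0.19 was called, but not without the second day 1 pool, without the first day 14 pool (-0.99) or with scaling by library totals (-0.94). In F4/80- cells the calls of Sdf2l1, Creld2 and Pdia6 were lost without the second day 14 pool, that of Creld2 also without the first and that of Sdf2l1 without the second day 1 pool. In CX3CR1+ macrophages neither Hyou1 nor Sdf2l1 reached the fold threshold.

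The calreticulin gene Calr was called lower over time in CX3CR1+ but not in CD9+ macrophages. Its product is a lectin chaperone that holds glycoproteins in the ER. Its CD9+ libraries had 868 and 1185 CPM on day 1 and 692 and 815 CPM on day 14, and the change of -0.45 ± 0.15 was not called. CX3CR1+ macrophages went from 882 and 894 CPM to 376 and 329 CPM (-1.33 ± 0.15, adjusted p = 3.6e-05 in edgeR's quasi-likelihood test). The difference between these changes was 0.89 ± 0.21 (adjusted p = 0.033, edgeR's quasi-likelihood test), below the fold threshold. Calr was the only one of 36 members under the adjusted p threshold in that test, a share near the 2.84% of all genes. In the same test 0 members and 2.28% of all genes were called with edgeR, and 0 members with DESeq2 and with limma-voom. An unadjusted p under 0.05 was reached by 3 members. With scaling by library totals, or without the second CD9+ day 1 library, 1 member was called. Eosinophil markers summed to 491 to 562 CPM in the CD9+ libraries of day 1 and 5826 to 9400 CPM in those of day 14. Epx (151 and 140 against 1816 and 3066 CPM) and Prg2 (281 and 390 against 3927 and 6237 CPM) held most of it. Siglecf (25.5 and 16.8 against 43.0 and 59.4 CPM) and Ccr3 (33.6 and 16.6 against 39.9 and 36.6 CPM) rose less. Plasma cell markers summed to 625 to 1270 CPM and 1736 to 1924 CPM. Jchain, Mzb1, Igkc, Ighm and Igha were higher on day 14 without overlap, Derl3 and Tnfrsf17 overlapped, and Sdc1 was lower (29.8 and 49.7 against 14.2 and 24.1 CPM). No gene of either list was at 0 in these libraries except Igha in the first day 1 library. Their part in the result was not tested.

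Hsp90b1, the ER Hsp90, had 822 and 904 CPM on day 1 and 620 and 641 CPM on day 14 in CD9+ macrophages (-0.45 ± 0.13), and 791 and 820 CPM against 521 and 468 CPM in CX3CR1+ macrophages (-0.70 ± 0.13). These days did not overlap, but neither change reached 1 on the log2 scale. Neutrophils went from 574 and 625 CPM to 222 and 200 CPM, a change that was called (-1.51 ± 0.13, adjusted p = 7.3e-07, edgeR's quasi-likelihood test). The other ER folding genes called in neutrophils were Manf (-2.32 ± 0.20), Pdia4 (-1.95 ± 0.17), Calr (-1.83 ± 0.15) and Canx (-1.40 ± 0.13). Pdia4, another disulfide isomerase, was also called in CX3CR1+ macrophages, where 255 and 265 CPM became 142 and 115 CPM (-1.02 ± 0.15). Without the second library of either day the call was lost, with a log2 fold change of -0.88 without that of day 14. Dnajc3, Dnajb11, Pdia3 and Dnajb9 were called in no population over time. Dnajb11 and Pdia3 still passed the adjusted p threshold in all 4 populations. Their log2 fold changes ran from -0.77 to -0.60 and from -0.99 to -0.56. Dnajb9 passed that threshold in neutrophils only (-0.73 ± 0.20), and Dnajc3 in no population.

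**Figure D3:**
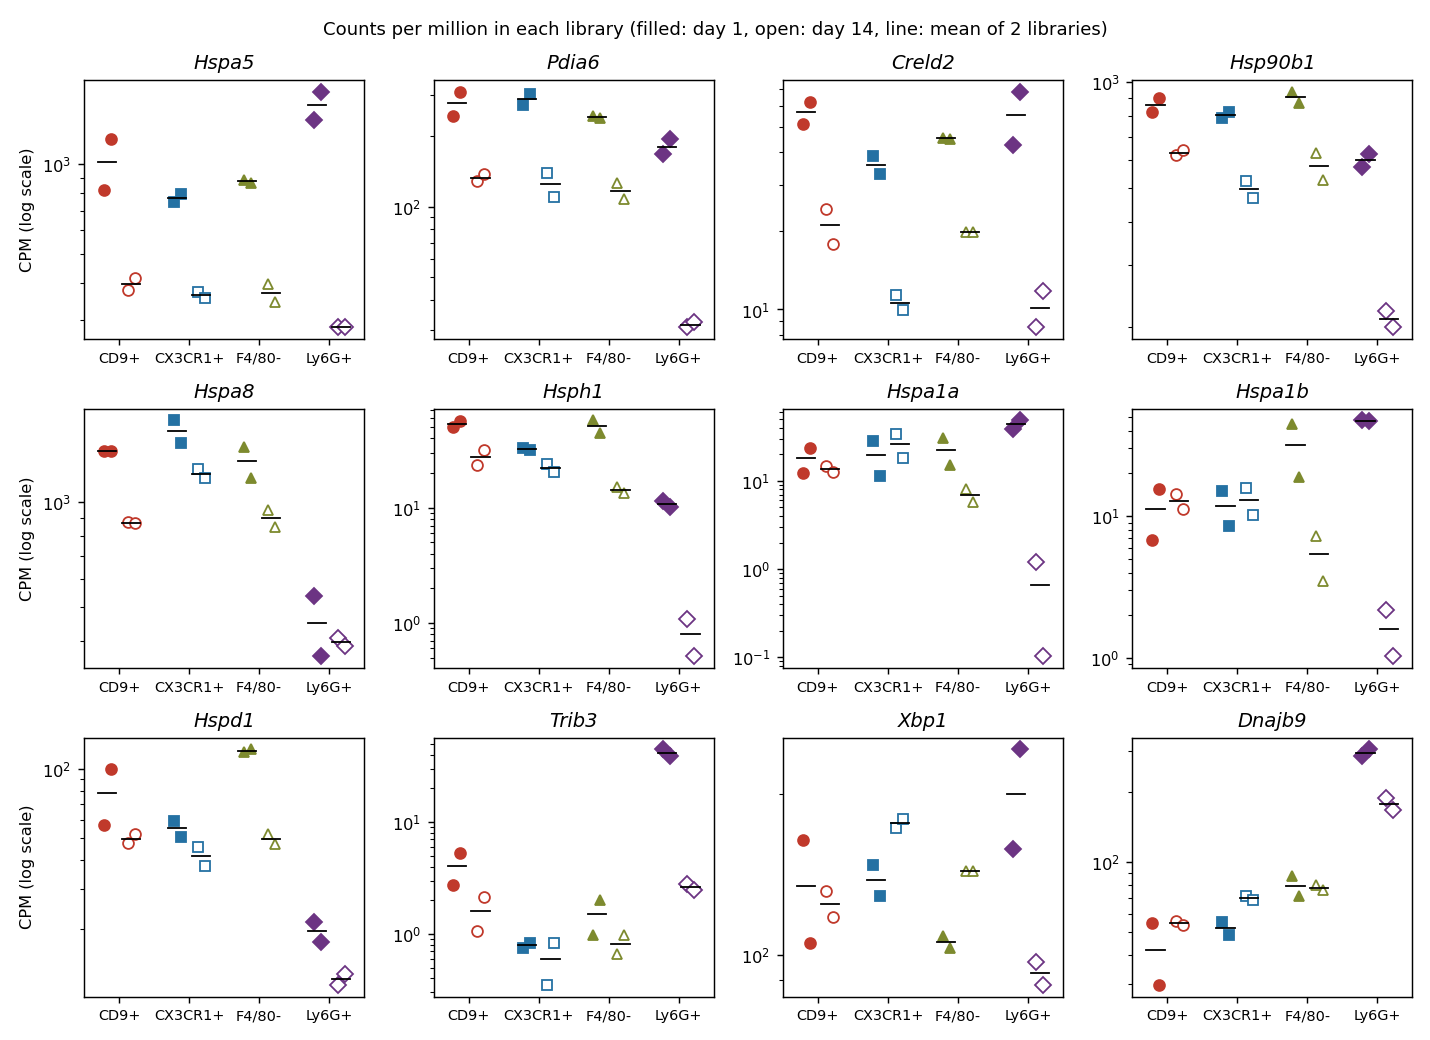
CPM of 12 members (y axes, log scale) in each of the 16 libraries, grouped by population and day. Hspa5, Pdia6 and Creld2 were lower in the day 14 libraries of each population, whereas Hspa1a, Hspa1b and Trib3 fell furthest in neutrophils.

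The ER-associated degradation genes were called nowhere. Herpud1, an ER membrane protein of the retrotranslocation complex, lay between 59.6 and 98.6 CPM, Sel1l, the adaptor of the HRD1 ligase, between 134 and 223 CPM, and Edem1, which marks misfolded glycoproteins for disposal, between 211 and 309 CPM over the 16 libraries. None of the 3 was called in any of the 12 comparisons, with median log2 fold changes over time from -0.24 to -0.13 in the 4 populations. Over time 2.24% to 10.9% of all genes were called lower, so 0 of 3 says little. Without the fold threshold Herpud1 passed over time in neutrophils (-0.41 ± 0.12) and in their interaction with the other populations (-0.43 ± 0.14). It also passed in neutrophils against the others on day 1 (0.37 ± 0.09) and in F4/80- cells against macrophages on day 14 (-0.43 ± 0.10). Sel1l passed in neutrophils against the others on day 14 (0.33 ± 0.11). The ER folding genes with the element printed above (7) had a median log2 fold change of -1.83 in neutrophils, and the 5 searched without it -0.99. In the other 3 populations the medians were -0.45 and -0.66 in CD9+ macrophages, -1.09 and -0.91 in CX3CR1+ macrophages, and -0.95 and -0.77 in F4/80- cells. The order of the medians was thus not the same in all populations.

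Cytosolic heat shock genes were called lower on day 14 in neutrophils (4 of 11) and F4/80- cells (2 of 11) and in neither macrophage population (0 of 11), where 10.9%, 2.24%, and 3.48% and 3.47% of all genes were. At such shares of all genes 0 of 11 says little. The median log2 fold change of these genes over time was -0.31 in CD9+ macrophages, 0.05 in CX3CR1+ macrophages, -0.60 in F4/80- cells and -0.18 in neutrophils, for the 11 of 12 that passed the filter. Hspb1, a small heat shock protein gene, had 0 to 8 counts per library and was not tested. In both macrophage populations 0 of 11 were called by edgeR, DESeq2 or limma-voom, and at an unadjusted p under 0.05 there were 3 higher and 4 lower in CD9+ and 0 higher and 4 lower in CX3CR1+ macrophages. Only Hspa8, Hsph1, Hsp90aa1 and Hsp90ab1 were lower on day 14 by sign in all 4 populations.

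The inducible Hsp70 genes Hspa1a and Hspa1b carried the largest changes over time among the members. They lie next to each other on chromosome 17 (34969190 to 34972156 and 34956436 to 34959238, mm10, minus strand), and 54.2% and 55.8% of their 75-base exon stretches occur elsewhere, mainly in each other, so reads could be assigned to either copy and their sum is given too. In neutrophils Hspa1a had 39.2 and 48.5 CPM on day 1 and 1.20 and 0.103 CPM (10 counts and 1 count) on day 14. Hspa1b had 47.3 and 47.0 CPM on day 1 and 2.17 and 1.03 CPM on day 14. The sum of both went from 86.5 and 95.6 CPM to 3.37 and 1.13 CPM. The log2 fold changes were -6.13 ± 0.71 and -4.90 ± 0.59, with adjusted p of 1.4e-05 and 2e-05 in edgeR's quasi-likelihood test. For Hspa1a the ratio of the CPM levels was 69.9, with an exact 95% interval of 38.9 to 140 that covers counting error only.

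In F4/80- cells Hspa1b went from 44.6 and 18.9 CPM to 7.27 and 3.51 CPM, and the sum of both copies from 74.9 and 34.0 CPM to 15.3 and 9.30 CPM. Hspa1b was called (-2.55 ± 0.48, adjusted p = 0.0054, edgeR's quasi-likelihood test), and Hspa1a was not (-1.70 ± 0.49). The 2 pools of day 1 differed more than those of day 14, and without the first day 1 pool Hspa1b changed by -1.79 and was not called, nor was it called without the second day 14 pool. In macrophages neither copy was called, and the sum was 19.2 and 39.2 CPM on day 1 and 29.2 and 23.8 CPM on day 14 in CD9+ cells, and 43.2 and 20.1 CPM and 49.5 and 28.3 CPM in CX3CR1+ cells. The days overlapped in both. In F4/80- cells 5 basophil and mast cell markers summed to 708 to 887 CPM on day 1 and 1316 to 1499 CPM on day 14, with 1 of 5 called higher (Prss34) and none at 0, and their part in the F4/80- results was not tested.

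Hsph1, an Hsp110 that exchanges nucleotide on Hsp70, fell in neutrophils and in F4/80- cells. Its neutrophil libraries went from 11.5 and 10.2 CPM to 1.08 and 0.515 CPM (9 and 5 counts; -3.78 ± 0.32, adjusted p = 6e-07), and its F4/80- libraries from 57.3 and 44.5 CPM to 15.1 and 13.3 CPM (-1.84 ± 0.21, adjusted p = 8.8e-05), both by edgeR's quasi-likelihood test. Hsp90aa1, the stress-inducible cytosolic Hsp90, was called over time in neutrophils only, from 411 and 402 CPM to 158 and 121 CPM (-1.55 ± 0.17). Of its exon stretches, 42.8% are shared with other loci. This share was 46.4% for Hspb1, 32.8% for Hspa8, 29.6% for Hspd1, 11.9% for Hspe1 and 10.4% for Dnaja1. The constitutive partners behaved otherwise in neutrophils. Hspa8, the constitutive Hsp70, had 535 and 361 CPM on day 1 and 408 and 386 CPM on day 14 (-0.18 ± 0.17), and Hsp90ab1 had 692 and 498 CPM and 570 and 549 CPM (-0.09 ± 0.17), with overlapping days. In CD9+ macrophages Hspa8 went from 1401 and 1397 CPM to 872 and 868 CPM, a change under the fold threshold (-0.69 ± 0.17).

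The co-chaperones and the regulator Hsf1 passed the call threshold over time in no population. Dnajb1 and Dnaja1, Hsp40 proteins that deliver clients to Hsp70, had 111 and 112 CPM and 140 and 171 CPM in day 1 neutrophils, and 107 and 114 CPM and 182 and 190 CPM on day 14. Bag3, which links Hsp70 to autophagy, had 6.97 and 6.41 CPM on day 1 and 7.35 and 5.25 CPM on day 14 in neutrophils. Hsf1, the heat shock factor, stayed between 8.40 and 23.2 CPM over all 16 libraries. Dnajb4, another Hsp40, lay between 11.1 and 26.2 CPM.

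Mitochondrial chaperones were called lower on day 14 in F4/80- cells and neutrophils. Hspd1 (Hsp60) went from 118 and 122 CPM to 52.3 and 46.9 CPM in F4/80- cells (-1.28 ± 0.21, adjusted p = 0.0020, edgeR's quasi-likelihood test). Its partner Hspe1 (Hsp10), transcribed from the shared promoter shown above, went from 40.0 and 37.5 CPM to 19.1 and 13.5 CPM there (-1.25 ± 0.33, adjusted p = 0.035, same test). The Hspe1 call was lost when any 1 of these 4 libraries was left out. Hspa9, the mitochondrial Hsp70, was called in neutrophils, where 94.8 and 127 CPM became 35.0 and 28.0 CPM (-1.82 ± 0.15). In macrophages none of the 3 was called, where 3.48% (CD9+) and 3.47% (CX3CR1+) of all genes were called lower, so 0 of 3 says little. In CD9+ macrophages Hspd1 (-0.65 ± 0.21) and Hspa9 (-0.48 ± 0.14) were lower without overlap and passed the adjusted p threshold, under the fold threshold.

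Among transcription factors and ATF4 targets, Trib3 and Xbp1 were called, both in neutrophils. Trib3, a pseudokinase raised by ATF4 and CHOP, had 44.8 and 39.0 CPM in neutrophils on day 1 and 2.77 and 2.47 CPM on day 14 (-4.00 ± 0.45, adjusted p = 9.7e-06, edgeR's quasi-likelihood test). In the other 12 libraries it lay between 0.349 and 5.28 CPM. Xbp1, the factor spliced by the sensor IRE1, had 158 and 242 CPM in neutrophils on day 1 and 97.1 and 88.1 CPM on day 14 (-1.11 ± 0.20, adjusted p = 0.00076, same test), and without the second day 1 pool the change was -0.77 and not called. Its other populations ran from 103 to 164 CPM on day 1 and from 118 to 180 CPM on day 14, and gene counts cannot tell spliced from unspliced Xbp1. Atf4 itself had 548 and 535 CPM and 485 and 439 CPM in neutrophils. Ddit3 (CHOP) had 72.1 and 75.3 CPM and 50.5 and 46.5 CPM there, and neither gene was called over time in any population. Chac1, a glutathione-degrading ATF4 target, kept 9.82 and 7.99 CPM on day 1 and 10.8 and 11.4 CPM on day 14 in neutrophils.

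Whether the time course differed between neutrophils and the mean of the other 3 populations was tested as an interaction. Of 36 members, 13 were called, all with a larger decrease in neutrophils (36.1%, where 7.15% of all genes were called in this direction and 8.49% in either). Without the fold threshold 19 of the 36 members passed, and 14.8% of all genes. The 13 were Hspa1a (-5.57 ± 0.77), Hspa1b (-4.17 ± 0.64), Trib3 (-3.12 ± 0.53), Hsph1 (-2.67 ± 0.35), Manf, Pdia6, Xbp1, Sdf2l1, Hspa5 (-1.25 ± 0.19), Hspa9, Pdia4, Hsp90aa1 and Canx, at adjusted p between 7.3e-05 and 0.011 in edgeR's quasi-likelihood test. By role these were 6 of 14 ER folding genes, 4 of 11 cytosolic genes, 1 of 3 mitochondrial genes, 2 of 5 factors and 0 of 3 degradation genes. Hsp90b1 had a difference of -0.90 ± 0.15, under the fold threshold, and Hspa8 one of 0.37 ± 0.19. Leaving out 1 library ended the calls of Sdf2l1 and Pdia4 (second day 14 neutrophil pool), Xbp1 (second day 1 neutrophil pool), Canx (second day 14 neutrophil, first day 1 CD9+ or first day 14 CX3CR1+ pool) and Hsp90aa1 (second day 14 neutrophil pool or the first day 14 pool of any other population). The Sdf2l1 call was also lost with limma-voom.

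Other genes moved in neutrophils over the same days. Of 10 immediate early genes raised by tissue digestion, 5 were called lower on day 14 (Fosb, Jun, Egr1, Atf3 and Dusp1), where 10.9% of all genes were. The summed level of the 10 was 15297 to 17781 CPM on day 1 and 9709 to 10112 CPM on day 14. Fos and Nr4a1 were higher on day 14 without overlap. Fos went from 1952.5 and 1581 CPM to 2530 and 2485 CPM, and Nr4a1 from 528 and 592 CPM to 875 and 930 CPM. In each of the other populations 0 of 10 were called. Of 12 macrophage and monocyte markers, 9 were called lower in neutrophils, from 3392 to 3763 CPM to 775 to 798 CPM in sum. Of 10 neutrophil markers 2 were called higher and 0 lower, from 53812 to 88964 CPM to 109781 to 116056 CPM in sum. The list was split. S100a8, Ly6g, Mmp8, Retnlg, Camp, Ltf and Ngp were higher on day 14 without overlap, and S100a9 overlapped. Cxcr2 was lower without overlap (1869 and 1397 CPM against 941 and 1009 CPM), as was Csf3r (3636 and 3807 CPM against 2372 and 2403 CPM). No gene of these 3 lists was at 0 in these libraries except Mertk, a macrophage marker, in the second day 14 library. Their part in the result was not tested.

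**Figure D4:**
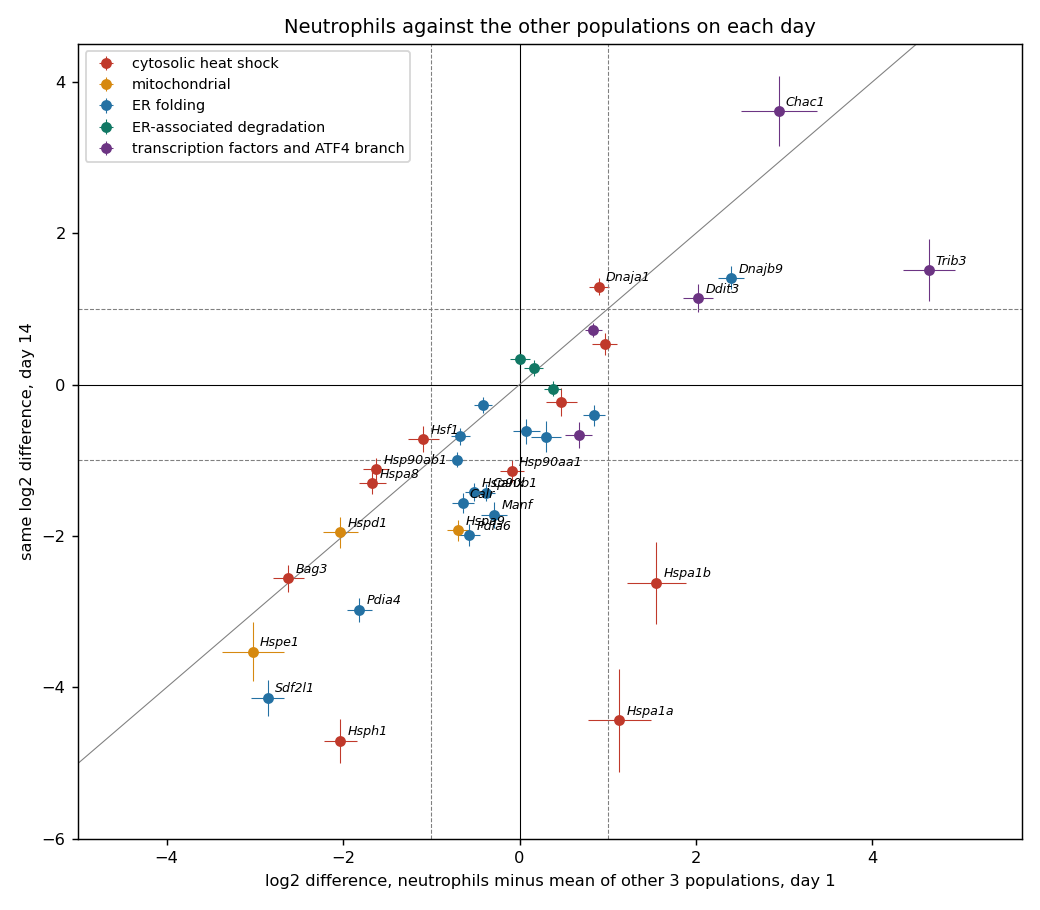
Log2 difference between neutrophils and the mean of the other 3 populations on day 1 (x axis) and on day 14 (y axis) for the 36 members, with 1 point for each gene. Points below the diagonal had a more negative change over time in neutrophils than in the mean of the others, which can include a rise in the others. Hspa1a moved from 1.13 on day 1 to -4.44 on day 14.

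Neutrophils also differed from the other populations within each day, though most genes did. On day 1, 15 of 36 members were called (41.7%, below the 50.7% of all genes), 6 higher and 9 lower in neutrophils (23.8% and 26.9% of all genes). Without the fold threshold 30 of the 36 members passed, and 74.4% of all genes. The split was 5 higher and 15 lower with scaling by library totals, which shifted the median of all genes by -0.51. The higher genes were Trib3 (4.64 ± 0.30, 24.9-fold), Chac1 (2.94 ± 0.43, 7.66-fold), Dnajb9 (2.40 ± 0.15, 5.27-fold), Ddit3 (2.02 ± 0.17, 4.06-fold), Hspa1b and Hspa1a. Dnajb9, an ER DnaJ that restrains IRE1, had 285 and 306 CPM in neutrophils and 29.7 to 87.1 CPM elsewhere on day 1. Lower genes were led by Hspe1 (-3.02 ± 0.35), Sdf2l1 (-2.86 ± 0.19), Bag3 (-2.62 ± 0.17) and Hspd1 (-2.03 ± 0.20), and also held Hsph1, Pdia4, Hspa8, Hsp90ab1 and Hsf1. Hspa1a, at 1.13 ± 0.36, was at 0.63 and not called with scaling by library totals, and its call was lost without the first CD9+ pool or the second pool of any other population. Adjusted p of these 15 genes lay between 1.4e-09 and 0.0095 in edgeR's quasi-likelihood test. Hspa5 was 1.80-fold higher in neutrophils (0.85 ± 0.13), under the threshold.

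On day 14, 22 members were called (61.1%, against 49.8% of all genes), 5 higher and 17 lower (21.5% and 28.3% of all genes), or 1 higher and 23 lower with scaling by library totals, with a shift of -0.52. Without the fold threshold 33 of the 36 members passed, and 73.1% of all genes. Lower in neutrophils were first of all Hsph1 (-4.70 ± 0.29, 26.1-fold), Hspa1a (-4.44 ± 0.68, 21.6-fold), Sdf2l1 (-4.14 ± 0.24, 17.6-fold) and Hspe1 (-3.53 ± 0.39, 11.5-fold). The others were Pdia4, Hspa1b, Bag3, Pdia6, Hspd1, Hspa9, Manf, Calr, Canx, Hsp90b1, Hspa8, Hsp90aa1 and Hsp90ab1. Higher were Chac1 (3.61 ± 0.46), Trib3 (1.51 ± 0.41), Dnajb9 (1.41 ± 0.15), Dnaja1 (1.29 ± 0.11) and Ddit3 (1.14 ± 0.18). Of the higher genes, Chac1 alone was also called under scaling by library totals. Hspa5 had changed side, at -0.41 ± 0.14, without reaching the threshold.

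F4/80- cells differed from macrophages in a few members. Against the mean of CD9+ and CX3CR1+ macrophages, 3 members were called on day 1 (8.33%, where 18.8% of all genes were called) and 4 on day 14 (11.1%, where 14.7% were). These were 2 higher and 1 lower on day 1 (9.46% and 9.38% of all genes), and 1 higher and 3 lower on day 14 (6.26% and 8.45%), and 4 higher and 0 lower on day 1 with scaling by library totals. Without the fold threshold 10 and 9 of the 36 members passed, and 37.6% and 29.5% of all genes. Bag3 was lower on both days, at 22.5 and 26.0 CPM on day 1 and 22.3 and 17.4 CPM on day 14, against 50.6 to 56.0 CPM and 38.6 to 62.5 CPM in macrophages (-1.14 ± 0.15 and -1.34 ± 0.16). Scaling by library totals left the day 1 value at -0.98, not called. Chac1 was higher on both days (2.91 ± 0.50 and 2.90 ± 0.58), with 4.88 and 4.03 CPM and then 3.20 and 3.75 CPM, while no macrophage library was above 1.69 CPM. Hspa1b was higher on day 1 (1.47 ± 0.37, adjusted p = 0.0055) and lower on day 14 (-1.25 ± 0.44, adjusted p = 0.044), and Hspa1a was lower on day 14 (-1.44 ± 0.45, adjusted p = 0.025), by edgeR's quasi-likelihood test. Without the first F4/80- pool of day 1, Hspa1b stood at 0.73 and was not called, and without the first CD9+ pool 5 members were called on day 1. On day 14 the calls of both copies were lost without the second F4/80- pool or without the first pool of either macrophage population.

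The macrophage populations differed in few members. Of 36, 1 was called on day 1 (2.78%, where 8.23% of all genes were called) and 2 on day 14 (5.56%, where 14.2% were), all higher in CD9+ cells (6.36% and 9.65% of all genes). Without the fold threshold 5 and 8 of the 36 members passed, and 15.7% and 26.3% of all genes. Trib3 had 2.76 and 5.28 CPM in CD9+ and 0.747 and 0.836 CPM in CX3CR1+ macrophages on day 1 (2.31 ± 0.47, adjusted p = 0.0036, edgeR's quasi-likelihood test), and limma-voom did not call it. Without the first CD9+ pool 3 members were called on day 1. On day 14, Calr was 2.14-fold higher in CD9+ cells (1.10 ± 0.15, adjusted p = 5.6e-05, same test), but without the second CD9+ or CX3CR1+ library the value was 0.96 or 0.99 and not called. Chac1 rested on 23 counts in CD9+ and 4 counts in CX3CR1+ libraries of day 14, a ratio of 6.24 with an exact 95% interval of 2.13 to 24.8 for counting error only (2.59 ± 0.91, adjusted p = 0.047, same test), and the call was lost with the replicate block, without a filter, and without either CD9+ pool or the first CX3CR1+ pool. Hspa5, Hsp90b1, Hspa8 and Xbp1 were called on neither day.

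Levels between genes were compared per exon length, as TPM, counts divided by exon length and scaled to a fixed total in each library. TPM values are read here between genes within a group, not between groups or days. Between groups they can differ from the tested changes, as for Atf4 in neutrophils (345 and 207 TPM, log2 fold change -0.23 ± 0.12). Hsp90ab1, the constitutive cytosolic Hsp90, had the highest level of the members in 6 groups, for example 1221 TPM (1149 and 1292) in CX3CR1+ macrophages on day 1, followed there by Hspa8 at 875 TPM (862 and 887), whose libraries lay below it. Calr followed at 733 TPM, Pdia3 at 554 TPM, Hsp90b1 at 475 TPM and Hspa5 at 435 TPM. In day 1 neutrophils Hspa5 led at 559 TPM (529 and 589), above Atf4 at 345 TPM, Calr at 315 TPM and Hsp90ab1 at 300 TPM, and the last 3 overlapped in their libraries. In day 14 neutrophils Atf4 had 207 TPM (184 and 231) and Hsp90ab1 197 TPM (180 and 213), with overlapping libraries, while Hspa5 had 70.8 TPM. All members together took 1.02% to 1.28% of the counts in the other populations on day 1 and 0.602% to 0.644% in neutrophils. On day 14 these shares were 0.692% to 0.837% and 0.307% to 0.330%.

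Further genes of these pathways, 96 listed and 93 tested, were read in the same fit. None was called higher on day 14 in any population, and 5 were called lower in CD9+ macrophages, 4 in CX3CR1+ macrophages, 2 in F4/80- cells and 21 in neutrophils. These are 5.38%, 4.30%, 2.15% and 22.6% of the 93, against 3.48%, 3.47%, 2.24% and 10.9% of all genes called lower, so the F4/80- share was at that of all genes. In neutrophils 8 of 21 ER folding and translocation genes were called lower, led by Ero1l (-3.48 ± 0.29), the oxidase that recharges disulfide isomerases, P4hb (-2.40 ± 0.15), a disulfide isomerase, and Sil1 (-2.34 ± 0.46), a nucleotide exchange factor of BiP. Ero1l had 1225 and 1734 CPM in neutrophils on day 1 and 130 and 135 CPM on day 14. P4hb was also called in CD9+ and CX3CR1+ macrophages, at -1.07 ± 0.14 in both, and Ero1l in CD9+ macrophages (-1.46 ± 0.27).

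Of 19 ER stress sensors and ATF4 targets, 8 were called lower in neutrophils, among them Ddit4 (-3.53 ± 0.36), an inhibitor of mTORC1, and Ppp1r15a (-3.26 ± 0.23), which restarts translation by dephosphorylating eIF2alpha. Ppp1r15a had 676 and 934 CPM on day 1 and 83.1 and 85.2 CPM on day 14 in neutrophils. Phgdh, of serine synthesis, was called in all 4 populations, but in neutrophils it had 40 counts on day 1 and 2 counts on day 14, a ratio of 14.3 with an exact 95% interval of 3.71 to 122 for counting error. In the other populations it changed by -1.06 ± 0.33 in CD9+ macrophages, -1.47 ± 0.34 in CX3CR1+ macrophages and -1.62 ± 0.32 in F4/80- cells. Nupr1, a stress-induced chromatin protein, was called in those populations too (-1.09 ± 0.32, -1.14 ± 0.31 and -1.72 ± 0.36) and in neutrophils (-2.22 ± 0.50). Sesn2 was called in CD9+ macrophages (-1.15 ± 0.27) and neutrophils (-1.31 ± 0.24), and Ddit4 also in CX3CR1+ macrophages (-1.95 ± 0.44). Degradation genes had 2 of 13 called lower in neutrophils, Selenos (-1.64 ± 0.18) and Derl3, also on the list of plasma cell markers, which had 78 counts on day 1 and 1 count on day 14. Cytosolic co-chaperones had 2 of 22 (St13 and Ptges3), mitochondrial chaperones and proteases 1 of 10 (Lonp1), and the 8 subunits of the cytosolic chaperonin TRiC 0 of 8, with a median of -0.01 for TRiC. The shares of the degradation, co-chaperone and mitochondrial lists (15.4%, 9.09% and 10%) were near the 10.9% of all genes called lower in neutrophils. These calls had adjusted p of at most 0.038 in edgeR's quasi-likelihood test.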

How the data were processed

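Total RNA of 16 libraries was measured by paired-end bulk RNA-seq (SMART-Seq Stranded kit). Per the study's methods, Cutadapt trimmed the reads, STAR placed them on mm10, and reads on exons of Gencode M23 were summed for each gene. The authors deposited these raw counts, with no normalization. Groups were taken from the sample labels. CPM, TMM factors and tests were computed here with edgeR 4.0.16 in R 4.3.3 (glmQLFit, glmQLFTest), with 1 mean for each of 8 groups over all 16 libraries and Benjamini-Hochberg adjustment over 11998 of 20200 genes with a group mean of at least 3 CPM in at least 1 group. Standard errors are those of the fitted log2 fold changes, on a common biological coefficient of variation of 0.178. TPM used exon lengths of Gencode M21, in which 36 of 37 members have the same coordinates. Intervals are exact (Clopper-Pearson) and, since reads carry no molecular identifiers, cover counting error only. Genes were named if called in any of 12 comparisons, up to 4 in each direction with values where more than 8 were called, with Hspa5, Hsp90b1, Hspa8, Xbp1, Hspa1a and Hspa1b always named. For further genes of the pathways, at most 3 of each list and direction were named. Alternatives were DESeq2 1.42.0, limma-voom (limma 3.58.1), other scalings, filters and thresholds, a replicate block and leaving out each library. The steps were tested on simulated data. The members and lists were chosen with earlier results of these data known.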

Additional observations from a re-analysis of the deposited data

Results flagged for a closer look

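In 13 members the change from day 1 to day 14 differed between neutrophils and the mean of the other 3 populations by the interaction term of edgeR's quasi-likelihood test. The differences in log2 fold change, neutrophils minus the others, were -5.57 for Hspa1a, -4.17 for Hspa1b, -2.67 for Hsph1 and -1.06 for Hsp90aa1 among cytosolic genes, and -1.23 for Hspa9 in mitochondria. Among ER folding genes they were -1.43 for Manf, -1.42 for Pdia6, -1.28 for Sdf2l1, -1.25 for Hspa5, -1.16 for Pdia4 and -1.04 for Canx. The transcription factor Xbp1 had -1.34 and the ATF4 target Trib3 had -3.12. The calls of Sdf2l1, Pdia4, Xbp1, Canx and Hsp90aa1 were lost when certain single libraries were left out. Some immediate early genes and most macrophage markers were also called lower in day 14 neutrophils, while Fos and Nr4a1 were higher. Their part in the result was not tested.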

How the results depend on the processing

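Of 96 called member values, 67 were called in every alternative run. Over 1338 alternative values, 1273 kept the call, 65 lost it and 0 changed sign. The number of members called over time in CD9+ macrophages (5) was 3 with scaling by library totals, 17 without a fold threshold and 2 to 8 with 1 library left out, lowest without the second and highest without the first day 1 library. In CX3CR1+ macrophages (5) it was 12 without a fold threshold and 4 to 8 with 1 library left out. In F4/80- cells (9) it was 5 with the filter applied in every group, which removes genes low in any group, 19 without a fold threshold and 4 to 9 with 1 library left out, lowest without the second day 14 library. In neutrophils (17) leaving out 1 library gave 16 to 18. For CD9+ against CX3CR1+ macrophages on day 1 (1) the count was 2 with DESeq2, 0 with limma-voom, 0 with the filter in every group, 5 without a fold threshold and 1 to 3 with 1 library left out, highest without the first CD9+ library. On day 14 (2) it was 1 without a filter, 1 with the replicate block, 8 without a fold threshold and 1 to 2 with 1 library left out. For F4/80- cells against macrophages the counts of 3 on day 1 and 4 on day 14 became 1 and 1 with the filter in every group, 10 and 9 without a fold threshold, and 2 to 5 and 2 to 4 with 1 library left out, that of 5 without the first CD9+ library of day 1. For neutrophils against the others, 15 on day 1 became 8 with the filter in every group, 30 without a fold threshold and 14 to 16 with 1 library left out, and 22 on day 14 became 22 to 23. The interaction of macrophages (0) gave 1 with scaling by library totals, 1 without a fold threshold and 0 to 1 with 1 library left out, and that of neutrophils (13) 10 to 15. The cause was not tested except where stated. Leaving out a library leaves 1 in its group, which is then assumed to vary like the other groups. The study gives fewer mice than a separate pool for each library would need, so populations must share pools. The labels do not state which libraries do. Libraries with the same number on the same day had deviation correlations of 0.0132 to 0.144, over 0.1 in 3 of 12. They were treated as pairs only in the replicate block run, so the main tests between populations ignore shared pools. The replicate block gave 6, 5, 10 and 17 calls over time in the order above and 14 for the neutrophil interaction. Between CD9+ and CX3CR1+ macrophages it gave 1 call on each day. For F4/80- cells against macrophages it gave 3 and 4 calls on day 1 and day 14, and for neutrophils against the others 15 and 22. With 2 pools for each group and day 14 neutrophils at 1 to 18 counts for Hspa1a and Hspa1b, depth limits the size of those changes.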
